A study of Mus musculus with 8 samples.

Results

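The genes described here encode secreted growth factors that keep neurons alive or make blood vessels grow. The 9 members, Bdnf, Ntf3, Gdnf, Cntf, Fgf1, Fgf2, Vegfa, Vegfc and Hgf, were taken by symbol from the deposited table, which holds 21878 genes, and all 9 were found in it. Astrocytes, the support cells of the brain that are one source of such factors, had been isolated from newborn (P0) wild-type C57BL/6 mice. There were 4 libraries of cells treated with IL-1α, TNFα and C1q together (2 inflammatory cytokines and a complement protein; the cocktail below), meant to give C3d-positive reactive cells, and 4 libraries of cells without treatment. The sources used here give no dose or duration, and do not say whether libraries of a group came from separate cultures or animals, so p-values reflect only library-to-library spread, possibly technical. In 3 cocktail libraries the treatment label spells C1q as C2q, C3q or C4q, and the titles were followed. Messenger RNA was sequenced, and the deposited values fitted totals of 19195898 to 20640490 counted fragments a library. Of these, 99.86% to 99.89% were recovered as fragments of genes, so the totals are not the number sequenced.

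Neurotrophins such as BDNF and NT-3 are released as or cut from longer precursors and act through Trk receptor kinases and the p75 receptor. GDNF signals through GFRα1 and the kinase RET, and CNTF, which lacks a secretion signal, through a complex of its own receptor with LIFR and gp130. FGF-1 and FGF-2 also lack a classical secretion signal and need heparan sulfate to bind FGF receptors, VEGF-A and VEGF-C bind VEGF receptor kinases with neuropilins as co-receptors, and HGF binds the kinase MET. In brain tissue FGF-2, CNTF and VEGF-A are well known products of astrocytes.

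The cocktail moved the 2 classical fibroblast growth factors in opposite directions. Fgf2 was 2.84-fold higher and Fgf1 3.62-fold lower in cocktail libraries. Vegfc, Bdnf and Hgf also rose, by 1.63-, 1.43- and 1.30-fold in mean FPKM (sequenced fragments divided by gene length and library depth), while Ntf3 and Cntf were 3.26- and 1.61-fold lower. Vegfa did not pass the test. Of the 8 members tested 4 rose and 3 fell in limma, against 67.7% of all 11845 tested genes called in either direction, 26.6% higher and 41.1% lower. Rises made up 39.3% of all calls as deposited and 51.8% after median-ratio rescaling. Groups did not overlap for 6 of the 8 tested members, against 62.7% of all tested genes. A gene was tested if 4 or more libraries reached 1 FPKM, and called at an adjusted p under 0.05. The median log2 change was 0.20 over the 8 tested members and -0.05 over all tested genes. Gdnf lay under this filter, and Ntf3 passed it through its 4 untreated libraries and 1 cocktail library.

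**Figure D1:**
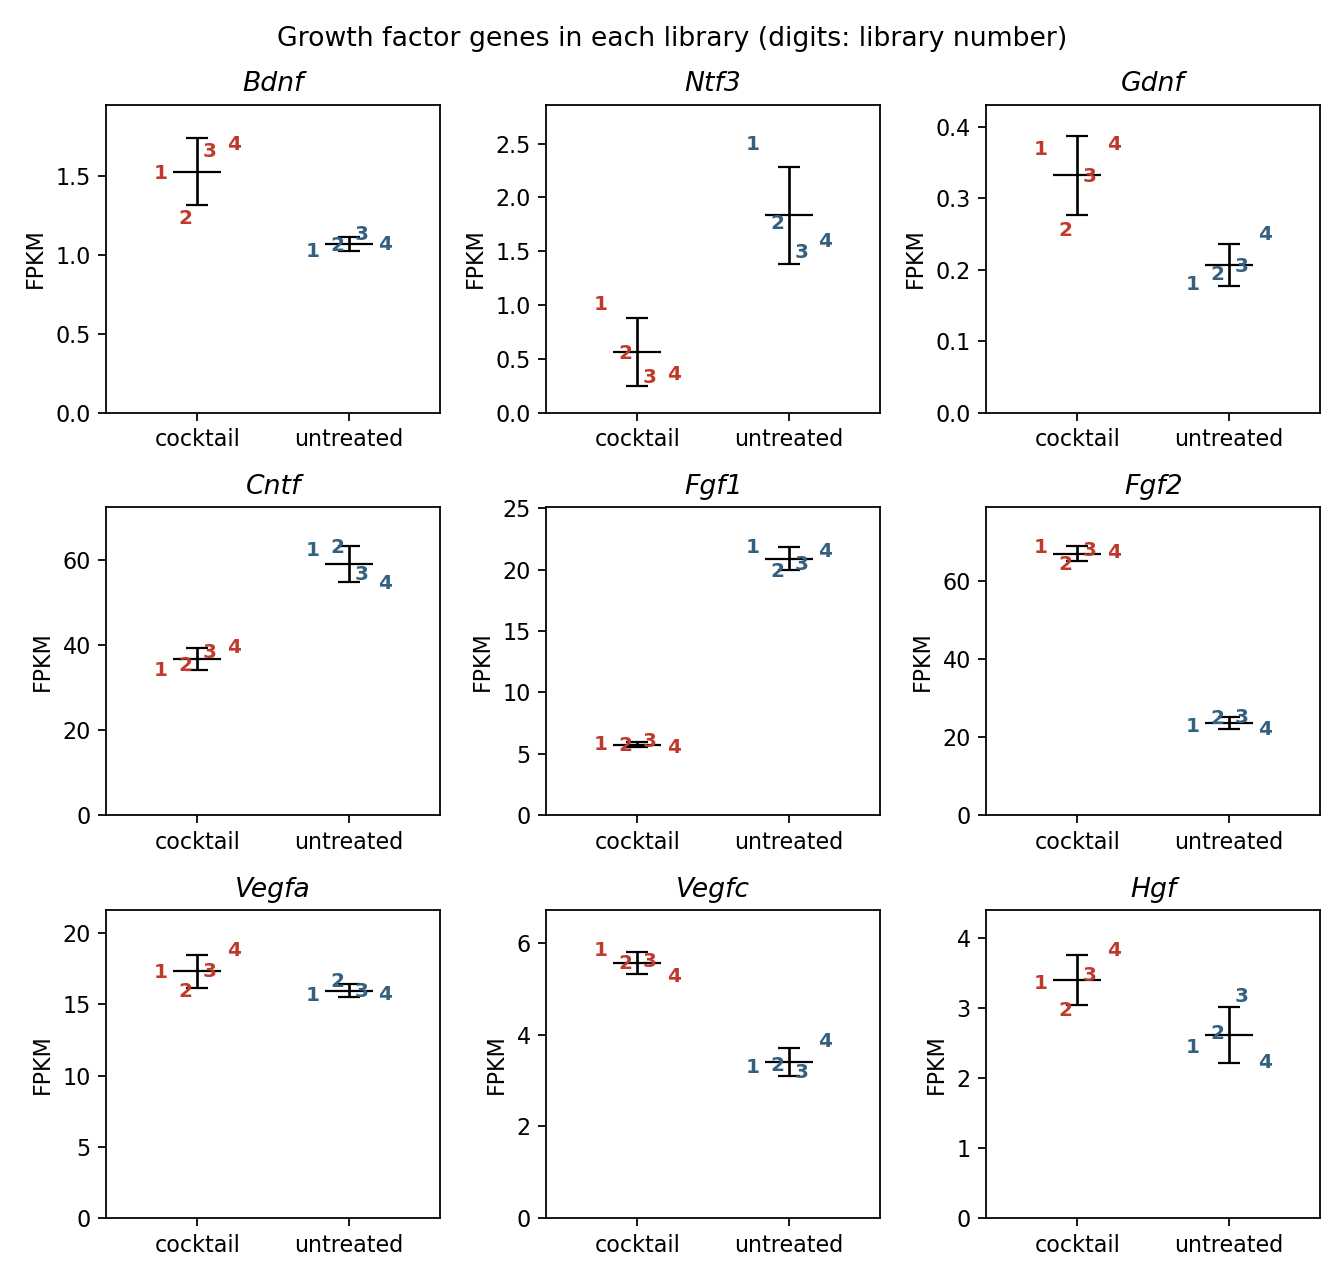
FPKM (y axis, from 0) of each growth factor gene in cocktail libraries (left, red) and untreated libraries (right, blue); each digit is a library, set sideways for legibility only, and lines are the mean and SD of 4 libraries. The groups are far apart for Fgf1 (5.50 to 6.03 against 19.8 to 21.8 FPKM) and Fgf2 (64.2 to 68.5 against 21.9 to 25 FPKM) and overlap for Vegfa and Hgf.

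The sequences just before the transcription start show how unlike the start regions of these genes are, within the angiogenic pair and outside it. RefSeq promoter windows of GRCm38.p6, the assembly that mm10 names, matched 8 of the 9 members, all but Fgf1, with a total of 18 windows, since Bdnf has 7 annotated starts. Vegfc (called higher), Vegfa (not called) and Cntf (called lower) are printed, as the 250 bases before the start, 5′ to 3′ on the gene's strand. They lie at chr8:54077282-54077531 (plus strand), chr17:46032378-46032627 (minus strand) and chr19:12765633-12765882 (minus strand). Capitals mark GC boxes (GGGCGG, either strand) in Vegfc, the NF-kB consensus and then GC boxes in Vegfa, and an AP-1 motif (TGANTCA) in Cntf.
Vegfc: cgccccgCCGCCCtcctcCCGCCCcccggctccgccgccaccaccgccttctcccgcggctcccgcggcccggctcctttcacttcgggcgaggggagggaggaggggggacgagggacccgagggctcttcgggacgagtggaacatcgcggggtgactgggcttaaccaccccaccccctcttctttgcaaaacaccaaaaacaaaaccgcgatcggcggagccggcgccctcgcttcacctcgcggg
Vegfa: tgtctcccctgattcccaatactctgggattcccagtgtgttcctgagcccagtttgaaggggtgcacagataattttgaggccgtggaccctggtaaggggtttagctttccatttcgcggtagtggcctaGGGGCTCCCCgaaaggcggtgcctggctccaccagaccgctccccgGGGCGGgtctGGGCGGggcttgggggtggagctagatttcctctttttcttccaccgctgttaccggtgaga
Cntf: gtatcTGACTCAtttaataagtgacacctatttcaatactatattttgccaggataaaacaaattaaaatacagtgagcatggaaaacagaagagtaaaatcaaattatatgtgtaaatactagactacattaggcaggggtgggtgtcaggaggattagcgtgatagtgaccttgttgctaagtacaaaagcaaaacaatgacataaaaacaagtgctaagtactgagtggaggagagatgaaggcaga

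The GC content of these stretches was 71.6% for Vegfc, 59.2% for Vegfa and 35.6% for Cntf, against a median of 52.4% over all 32851 promoter windows cut in the same way. The NF-kB consensus is the binding site of the transcription factor that interleukin-1 and tumor necrosis factor activate. It was found on either strand in 2 of the 18 member windows, of Bdnf and Vegfa, and in 3.9% of all windows. The AP-1 motif was found in 2 of the 18 member windows, of Bdnf and Cntf, and in 6.7% of all windows. The GC box stood in 8 of the 18, of Bdnf, Ntf3, Fgf2, Vegfa and Vegfc, and in 32.7% of all windows. The core of the hypoxia response element (ACGTG) stood in 5 of the 18, of Bdnf, Ntf3, Gdnf and Vegfa, and in 16.6% of all windows. The cyclic AMP response element (TGACGTCA) was in no window of a member and in 1.5% of all. No 2 of the capitalised motifs overlapped.

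Among the neurotrophins, Bdnf, which supports neuronal survival and synaptic change through TrkB, rose a little from a low level. It had 1.52, 1.23, 1.66 and 1.70 FPKM in cocktail libraries 1 to 4, against 1.02, 1.06, 1.13 and 1.07 FPKM in untreated libraries 1 to 4. All cocktail libraries lay above all untreated ones, with cocktail library 2 nearest to them. On the log2(FPKM + 1) scale Bdnf changed by 0.28 ± 0.068 (SE; limma, adjusted p = 0.0029), which rested on 824 fragments in cocktail and 570 in untreated libraries. Bdnf lies on chromosome 2 from 109674700 to 109727043 of GRCm38.

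Ntf3, which encodes NT-3, the preferred ligand of TrkC, went the other way. It had 1.01, 0.549, 0.329 and 0.356 FPKM in cocktail libraries 1 to 4, against 2.49, 1.76, 1.49 and 1.59 FPKM in untreated libraries 1 to 4. The groups did not overlap, but cocktail library 1 lay nearer to the lowest untreated library than to cocktail libraries 3 and 4. Ntf3 changed by -0.87 ± 0.14 in log2(FPKM + 1) (SE; limma, adjusted p = 0.00013). The cocktail libraries together held 93 fragments of Ntf3 (exact 95% Poisson interval 75.1 to 114) and the untreated libraries 300 (267 to 336), for counting error only. A linear model on log2 fragments without the added 1 FPKM (limma voom) gave a log2 change of -1.80 ± 0.28 (SE; adjusted p = 2.3e-05). Ntf3 lies on chromosome 6 from 126101412 to 126166772.

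The ratio of Bdnf to Ntf3 within a library, which no scaling of libraries can change, was 3.39 ± 1.78 in cocktail and 0.611 ± 0.148 in untreated libraries (SD, n = 4 each). It was 1.51 and 2.23 in cocktail libraries 1 and 2 and 5.03 and 4.78 in libraries 3 and 4. Cocktail libraries 3 and 4 also had higher summed levels of marker genes of microglia, the immune cells of the brain. The summed FPKM of 10 microglial markers was 15.8, 16.4, 35.0 and 47.3 in cocktail libraries 1 to 4 and 11.4 to 13.0 in untreated libraries. Of the 10 markers 5 were called higher. P2ry12 and Tmem119 stayed under 1 FPKM in every library, with means of 0.12 and 0.6 FPKM in cocktail and 0.0925 and 0.606 FPKM in untreated libraries. The part of microglia in these values was not tested. In such bulk samples fewer cells of a type and less RNA per cell cannot be told apart.

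Gdnf, a survival factor of dopaminergic and motor neurons, was the least abundant member. It had 0.368, 0.255, 0.331 and 0.375 FPKM in cocktail libraries 1 to 4, against 0.180, 0.193, 0.205 and 0.249 FPKM in untreated libraries 1 to 4. The groups stood apart by a narrow margin, between cocktail library 2 and untreated library 4. The sums were 130 fragments in cocktail libraries (exact 95% Poisson interval 109 to 154) and 80 in untreated libraries (63.4 to 99.6). Without the filter Gdnf changed by 0.14 ± 0.033 in log2(FPKM + 1) (SE; limma, adjusted p = 0.0057, where 53.2% of 17258 genes were called). With voom on genes of at least 10 fragments in at least 4 libraries the log2 change was 0.67 ± 0.23 (SE; adjusted p = 0.018, where 66.2% of 13674 genes were called). Gdnf lies on chromosome 15 from 7810048 to 7837580.

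Cntf, a cytokine of the interleukin-6 family, was the most abundant member in untreated cells and fell. It had 34.0, 35.2, 38.3 and 39.4 FPKM in cocktail libraries 1 to 4, against 62.1, 62.9, 56.5 and 54.5 FPKM in untreated libraries 1 to 4. The groups did not overlap. Its change in log2(FPKM + 1) was -0.67 ± 0.056 (SE; limma, adjusted p = 5.2e-07). Cntf lies on chromosome 19 from 12763528 to 12765632, where Zfp91 overlaps it on the same strand, and how the counting divided shared fragments is unknown. Zfp91, a zinc finger gene, stood at 34.5 ± 0.861 FPKM in cocktail and 36.1 ± 0.678 FPKM in untreated libraries (SD, n = 4 each; limma, adjusted p = 0.073).

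Fgf1, a broad ligand that binds all FGF receptors, had the largest change of the members on the log2(FPKM + 1) scale. It had 5.80, 5.72, 6.03 and 5.50 FPKM in cocktail libraries 1 to 4, against 21.8, 19.8, 20.4 and 21.5 FPKM in untreated libraries 1 to 4. Each group kept within a narrow band, far from the other. Fgf1 changed by -1.69 ± 0.042 in log2(FPKM + 1) (SE; limma, adjusted p = 1.1e-11). Arhgap26, which overlaps it on the other strand, stood at 1.65 ± 0.137 FPKM in cocktail and 1.44 ± 0.0889 FPKM in untreated libraries (SD, n = 4 each; limma, adjusted p = 0.096).

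Fgf2, basic FGF, a mitogen of glia, neural progenitors and endothelium, rose about as clearly. It had 68.5, 64.2, 67.6 and 67.3 FPKM in cocktail libraries 1 to 4, against 22.6, 24.7, 25 and 21.9 FPKM in untreated libraries 1 to 4. The groups lay far apart, with little spread in either. Fgf2 changed by 1.47 ± 0.043 in log2(FPKM + 1) (SE; limma, adjusted p = 4.4e-11). Fgf2 lies on chromosome 3 from 37348477 to 37410106, and Nudt6 overlaps it on the other strand; whether the counting used strand is unknown. Nudt6 stood at 3.18 ± 0.375 FPKM in cocktail and 2.88 ± 0.203 FPKM in untreated libraries (SD, n = 4 each; limma, adjusted p = 0.20).

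Within each library the ratio of Fgf2 to Fgf1 FPKM was 11.8, 11.2, 11.2 and 12.2 in cocktail libraries 1 to 4, against 1.04, 1.25, 1.23 and 1.02 in untreated libraries 1 to 4. This ratio depends on the gene lengths that the authors divided by, but its contrast between the groups does not. The FPKM of Fgf2 fitted a length of 967 bases, whereas its GENCODE exons merge to 6782 bases. For the other members the 2 lengths were closer, with 5893 and 5463 bases for Fgf1 and, farthest apart of the rest, 4148 and 7186 bases for Hgf.

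**Figure D2:**
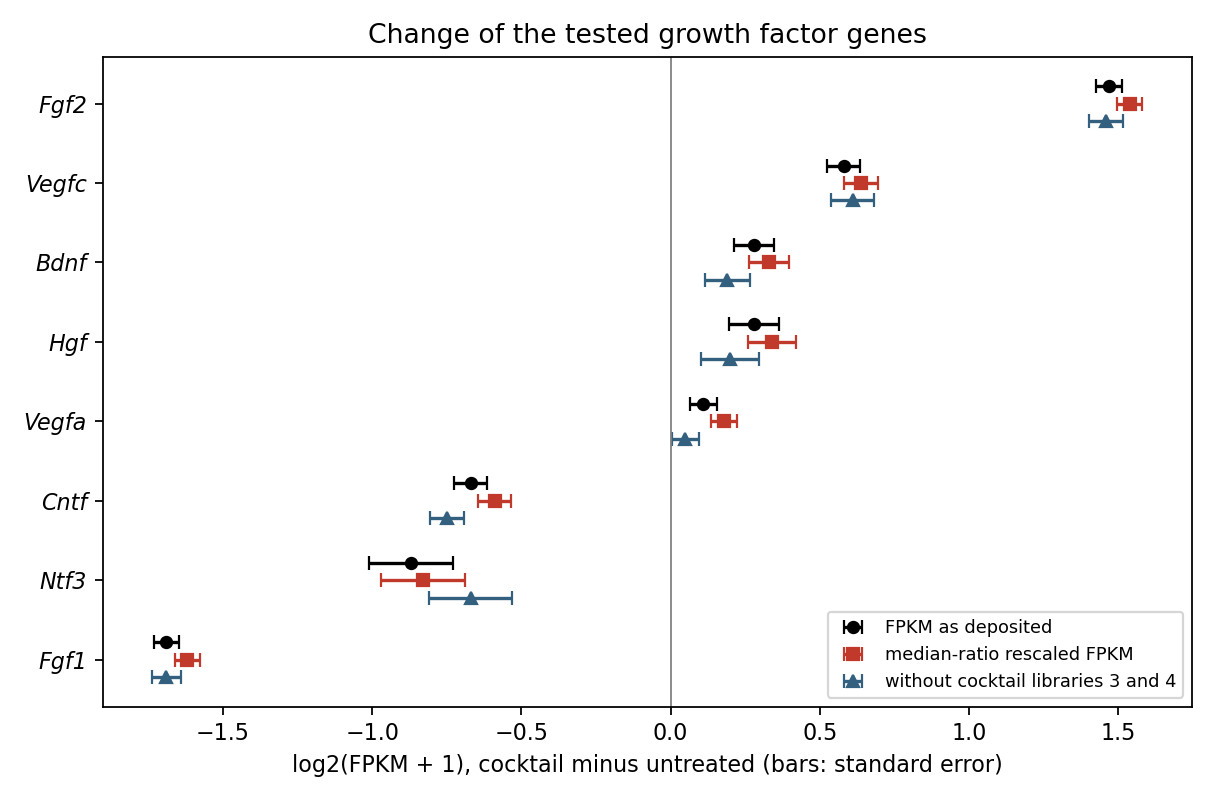
Change of the 8 tested genes on the log2(FPKM + 1) scale, cocktail minus untreated (x axis), with bars for the standard error; black circles are FPKM as deposited, red squares FPKM rescaled by median ratios, blue triangles the fit without cocktail libraries 3 and 4. Fgf2 (1.47) and Fgf1 (-1.69) lie farthest from 0 in opposite directions, and Vegfa (0.11) nearest to it.

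Of the angiogenic factors, Vegfa, the main driver of vessel growth and permeability and a textbook target of hypoxia, was at similar levels in both groups. It had 17.2, 15.9, 17.3 and 18.8 FPKM in cocktail libraries 1 to 4, against 15.6, 16.6, 15.9 and 15.7 FPKM in untreated libraries 1 to 4. Cocktail library 2 lay among the untreated libraries. Its change in log2(FPKM + 1) was 0.11 ± 0.046 and did not pass the test (SE; limma, adjusted p = 0.051). It passed after median-ratio rescaling, with a log2 change of 0.18 (limma, adjusted p = 0.0030). It also passed without cocktail library 2, with 0.15 (limma, adjusted p = 0.0093), and without untreated library 2, with 0.13 (limma, adjusted p = 0.041). With all libraries and no rescaling, limma voom on fragments called it too (0.12, adjusted p = 0.032). The call thus depends on the scaling, the test and the libraries used. Vegfa lies on chromosome 17 from 46016993 to 46032377.

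Vegfc, best known for lymphatic vessel growth, rose. It had 5.85, 5.56, 5.6 and 5.27 FPKM in cocktail libraries 1 to 4, against 3.29, 3.32, 3.18 and 3.86 FPKM in untreated libraries 1 to 4. The groups did not overlap. Vegfc changed by 0.58 ± 0.056 in log2(FPKM + 1) (SE; limma, adjusted p = 2.0e-06). The ratio of Vegfc to Vegfa FPKM was 0.323 ± 0.0308 in cocktail and 0.214 ± 0.0222 in untreated libraries (SD, n = 4 each). Vegfc lies on chromosome 8 from 54077532 to 54186454.

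Hgf, a factor for epithelium, endothelium and motor neurons, rose by a smaller amount. It had 3.35, 2.96, 3.47 and 3.83 FPKM in cocktail libraries 1 to 4, against 2.44, 2.64, 3.17 and 2.23 FPKM in untreated libraries 1 to 4. Untreated library 3 lay above cocktail library 2, so the groups overlapped. Hgf changed by 0.28 ± 0.083 in log2(FPKM + 1) (SE; limma, adjusted p = 0.0095). Without cocktail libraries 3 and 4, those with higher microglial marker sums, the change of Hgf was 0.20 and no longer passed (limma, adjusted p = 0.094). Bdnf stood at 0.19 in that fit and passed (limma, adjusted p = 0.043). Hgf lies on chromosome 5 from 16553495 to 16619439.

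By mean FPKM the order in cocktail cells was Fgf2, Cntf, Vegfa, Fgf1, Vegfc, Hgf, Bdnf, Ntf3 and Gdnf. Of these neighbours Fgf1 and Vegfc overlapped in their ranges, as did Ntf3 and Gdnf. In untreated cells the order was Cntf, Fgf2, Fgf1, Vegfa, Vegfc, Hgf, Ntf3, Bdnf and Gdnf, and Hgf overlapped with Ntf3. The order depends on the lengths used. Per kilobase of merged GENCODE exons Fgf2 had 9.54 in cocktail and 3.36 in untreated cells on the FPKM scale. That was below Cntf (41.2 and 66.3) and Vegfa (16.9 and 15.5) in both. Whether fragments from all merged exons of Fgf2 were counted is unknown, so these Fgf2 levels may be too low. With merged exon lengths Hgf stood at 1.96 in cocktail and 1.51 in untreated cells, and Ntf3 at 0.678 and 2.21. Ntf3 thus lay above Hgf in untreated cells. The fold change of a gene is the same with either length.

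The FGF receptor genes Fgfr1, Fgfr2 and Fgfr3 fell. Of the 18 receptor genes of the members 13 were tested, of which 5 rose and 6 fell. Over all tested genes 26.6% were higher and 41.1% lower, the background for this count and the list counts that follow. Fgfr1 stood at 58.3 ± 2.74 FPKM in cocktail and 117 ± 2.79 FPKM in untreated libraries (SD, n = 4 each; limma, adjusted p = 2.2e-10). Fgfr3 stood at 8.32 ± 1.01 and 22.6 ± 0.771 FPKM (SD, n = 4 each; limma, adjusted p = 4.7e-09) in cocktail and untreated libraries, and Fgfr2 at 32.9 and 42.2 FPKM. Fgfr4 was under 0.2 FPKM in every library. Over 10 tested FGF receptors and co-factors 2 rose and 7 fell, with a median log2 change of -0.40, against -0.05 over all tested genes. The heparan sulfate proteoglycan gene Sdc4 was 2.23-fold higher and Gpc1 2.37-fold lower in cocktail libraries.

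All 3 CNTF receptor subunit genes rose. Cntfr stood at 2.33 ± 0.132 FPKM in cocktail and 1.11 ± 0.165 FPKM in untreated libraries (SD, n = 4 each; limma, adjusted p = 2.2e-06). Lifr stood at 4.41 and 2.86 FPKM and Il6st, which encodes gp130, at 167 ± 2.55 and 150 ± 5.14 FPKM in cocktail and untreated libraries (SD, n = 4 each), and the call of Il6st was lost under quantile normalization (limma, adjusted p = 0.062). Of 5 tested cytokines of this kind 2 rose and 3 fell. Lif stood at 6.06 ± 0.313 and 2.57 ± 0.230 FPKM, and Il6 at 10.9 ± 2.68 and 0.422 ± 0.0961 FPKM, in cocktail and untreated libraries (SD, n = 4 each; limma, adjusted p = 1.9e-08 and 8.6e-10). Il6 entered the test through its cocktail libraries only, since it stayed under 1 FPKM in every untreated library. Clcf1, which encodes a further cytokine of this family, was 1.57-fold lower in cocktail libraries.

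**Figure D3:**
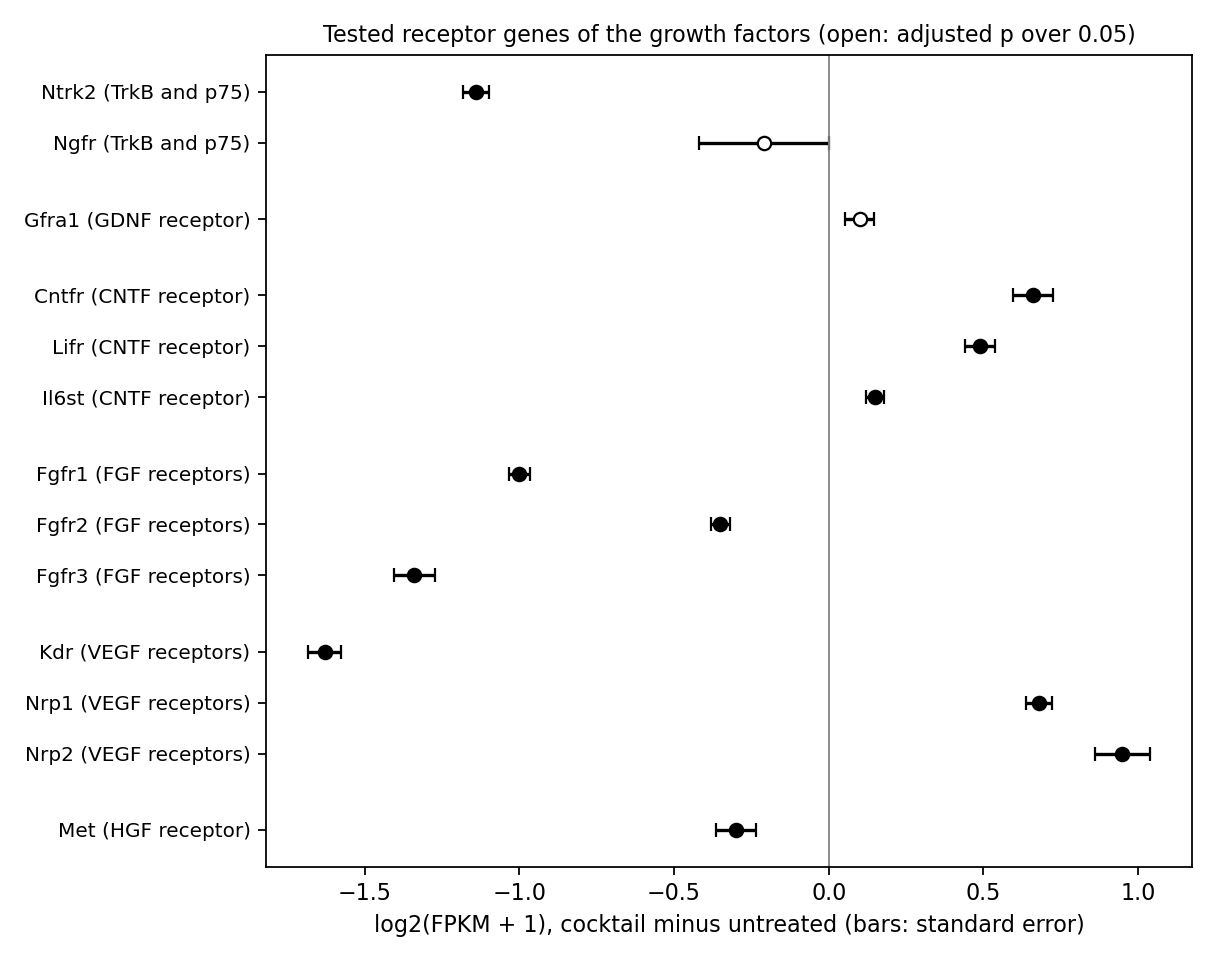
Change of the 13 tested receptor genes on the log2(FPKM + 1) scale, cocktail minus untreated (x axis), grouped by ligand; bars are standard errors, filled points passed limma at an adjusted p under 0.05 and open points did not. The 3 CNTF receptor genes lie right of 0 and the 3 FGF receptor genes left of it, and Kdr at -1.63 is farthest from 0.

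The neurotrophin receptors in these cultures were mainly Ntrk2 and the sortilin family. Ntrk2, which encodes TrkB, stood at 8.60 ± 0.238 FPKM in cocktail and 20.2 ± 1.03 FPKM in untreated libraries (SD, n = 4 each; limma, adjusted p = 2.5e-10), and full-length and truncated TrkB were not separated. Ntrk3, the gene of the NT-3 receptor TrkC, was under 0.25 FPKM in every library. Ngfr, which encodes p75, had 1.01 ± 0.0238 FPKM in cocktail and 1.46 ± 1.02 FPKM in untreated libraries (SD, n = 4 each; limma, adjusted p = 0.39), with 2.94 FPKM in untreated library 4 alone. The sorting receptor genes Sort1 and Sorcs1 differed in direction, with Sort1 1.76-fold lower and Sorcs1 1.64-fold higher in cocktail libraries.

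The GDNF receptor gene Gfra1 had 9.58 ± 0.673 FPKM in cocktail and 8.87 ± 0.273 FPKM in untreated libraries (SD, n = 4 each; limma, adjusted p = 0.092), a difference that passed after median-ratio rescaling (adjusted p = 0.0068). Ret, the signalling kinase, was under 0.4 FPKM in every library. Among the 3 tested relatives of GDNF and of the MANF family, Artn, which encodes artemin, rose 4.11-fold to 1.26 ± 0.143 FPKM in cocktail, against 0.307 ± 0.0636 FPKM in untreated libraries (SD, n = 4 each; limma, adjusted p = 6.4e-07). Artn reached 1 FPKM only in cocktail libraries, and so entered the test through the group where it was high. Nrtn fell 1.39-fold, and Manf, a factor induced by endoplasmic reticulum stress, rose 1.09-fold.

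The VEGF receptor genes split. Kdr, the gene of the main VEGF-A receptor, had 0.655, 0.690, 0.579 and 0.540 FPKM in cocktail libraries 1 to 4, against 4.16, 3.99, 3.94 and 3.88 FPKM in untreated libraries 1 to 4. It was 6.48-fold lower (limma, adjusted p = 1.0e-10), whereas the neuropilin genes Nrp1 and Nrp2 were 1.65- and 2.98-fold higher. Since it was under 1 FPKM in every cocktail library, Kdr entered the test through its untreated libraries only. Kdr is best known in endothelial cells. Of the 8 endothelial markers 6 were under 1 FPKM in every library, with Cldn5 at 0 throughout. The 8 markers summed to 2.24 to 3.42 FPKM in cocktail and 5.66 to 6.16 FPKM in untreated libraries. Kdr itself is in this list and made up most of the untreated sums. The other markers lay under the filter, and their means differed in direction. Esam averaged 1.08 and 0.679 FPKM and Pecam1 0.0958 and 0.13 FPKM in cocktail and untreated libraries. The part of endothelial cells in the Kdr result was not tested. Flt4, the gene of the main VEGF-C receptor, and Flt1 were under 0.4 FPKM in every library.

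Of 10 tested genes of other VEGF, PDGF and angiopoietin ligands 4 rose and 6 fell. Angptl4, an inhibitor of lipoprotein lipase, rose 9.10-fold to 17.5 ± 1.12 FPKM in cocktail, against 1.92 ± 0.261 FPKM in untreated libraries (SD, n = 4 each; limma, adjusted p = 1.5e-11). Pgf, placental growth factor, rose 3.06-fold, and Angpt2, a ligand of the Tie2 receptor, was 3.12-fold lower. Of 14 tested genes on a hypoxia response list 8 rose and 5 fell, against 26.6% higher and 41.1% lower over all tested genes. The list includes Hif1a and Epas1, which encode transcription factors of this response. The 8 that rose were Hif1a, Epas1, Adm, Ndrg1, P4ha2, Ddit4, Bnip3 and Kdm3a. The 5 that fell were Car9, P4ha1, Slc2a1, Egln1 and Pdk1, so the list did not move as one. Hif1a stood at 93.7 ± 3.29 and 35.4 ± 1.16 FPKM, and Car9, a carbonic anhydrase, at 1.68 ± 0.133 and 8.23 ± 0.454 FPKM, in cocktail and untreated libraries (SD, n = 4 each; limma, adjusted p = 1.0e-11 and 6.1e-11). Among 6 tested antiangiogenic factors 4 fell and 2 rose, with Serpinf1 (PEDF) 1.81-fold and Sema3f 2.18-fold lower and Thbs2 (thrombospondin 2) 2.35-fold and Vash1 (vasohibin 1) 1.95-fold higher.

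Met, the HGF receptor gene, fell to 4.24 ± 0.397 FPKM in cocktail, against 5.46 ± 0.438 FPKM in untreated libraries (SD, n = 4 each; limma, adjusted p = 0.0014). Spint2, which encodes an inhibitor of the proteases that activate HGF, rose 2.89-fold to 21.7 ± 0.378 FPKM, against 7.51 ± 0.595 FPKM in untreated libraries (SD, n = 4 each; limma, adjusted p = 1.3e-10). Of 4 tested proprotein convertase genes, a family whose members cut neurotrophin and VEGF-C precursors, 1 rose and 2 fell. Pcsk6 stood at 8.65 ± 1.38 and 51.6 ± 3.94 FPKM and Pcsk5 at 3.03 ± 0.167 and 1.48 ± 0.161 FPKM in cocktail and untreated libraries (SD, n = 4 each; limma, adjusted p = 3.1e-10 and 7.4e-07), while Furin did not pass (adjusted p = 0.067) and the small fall of Pcsk7 was lost after median-ratio rescaling (adjusted p = 0.10).

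Other growth factor genes gave the wider setting. Of the 20 other genes named as FGFs 5 were at 0 in every library and 4 were tested, of which 3 fell. Of these 3, Fgf12 and Fgf13 encode intracellular FGF homologous factors, which are not secreted ligands, and were 4.14- and 1.53-fold lower. The secreted ligand gene Fgf18 was 3.76-fold lower, and Fgf7 did not pass (limma, adjusted p = 0.44). Fgf12 and Fgf18 reached 1 FPKM only in untreated libraries, and so were tested through the group where they were high. Of 7 tested genes of the EGF family 4 rose and 2 fell, with the receptor gene Egfr 2.98-fold higher and the ligand gene Hbegf 2.41-fold lower. Ptn, pleiotrophin, was 2.53-fold lower in cocktail libraries, and its relative Mdk did not pass (limma, adjusted p = 0.85).

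All 9 astrocyte markers were at 1 FPKM or more in some library, S100b only in untreated ones. Markers of the cell types below also reached this level, so it does not single out astrocytes. The summed FPKM of the 9 markers was 845 to 872 in cocktail and 1052 to 1188 in untreated libraries, with 2 markers higher and 7 lower. Summed markers of mural cells were 134 to 151 in cocktail and 570 to 641 FPKM in untreated libraries, mostly from Acta2. Those of fibroblasts and meninges were 103 to 131 and 240 to 264 FPKM, those of neurons 52.3 to 59.5 and 140 to 158 FPKM, those of the oligodendrocyte lineage 123 to 127 and 212 to 226 FPKM, and those of ependyma 79.7 to 92.9 and 149 to 164 FPKM, in cocktail and untreated libraries. Calls were mixed within the fibroblast and meningeal, neuronal and oligodendrocyte lists. Called lower were 5 of 6 ependymal and 3 of 7 mural markers, with none higher in either list. Of the fibroblast and meningeal markers 3 were higher and 3 lower, with Lum 32.5-fold, Dcn 5.71-fold and Pdgfra 3.29-fold higher and Ogn 7.37-fold lower in cocktail libraries. Among neuronal markers Stmn2 averaged 38.8 FPKM in cocktail and 125 FPKM in untreated libraries and Map2 3.56 and 10.9 FPKM, Gad1 was 2.88-fold higher, and Rbfox3, Snap25, Nefl and Slc17a6 stayed under 1 FPKM. Among oligodendrocyte lineage markers Olig1 averaged 74.8 FPKM in cocktail and 139 FPKM in untreated libraries and Cnp 25.4 and 47.8 FPKM, Pdgfra (also in this list) was higher, and Mog was at 0. The part of these cells in the results was not tested.

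Over the 8 libraries the tested gene whose log2(FPKM + 1) was most like Fgf2 was Kif21a (Pearson r = 0.9995), the one most like Fgf1 was Wwc2 (r = 0.9996), and the one most like Ntf3 was 4933413G19Rik (r = 0.9921). These are descriptions over libraries that fall into 2 treatment groups, and r was over 0.95 for 1432, 2473 and 94 genes.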

How the data were processed

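Messenger RNA of 8 libraries was measured, and the authors deposited FPKM values, 1 column a library. A stranded mRNA kit was used, per the labels' protocols. The submitters' processing notes name DESeq and mm10, with the aligner, counter and strand setting not given in the sources used here. Groups and replicate numbers came from the sample titles.

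FPKM values of a gene stood in whole-number ratios (relative tolerance 1e-11), which gave whole fragments for 16557 genes, the gene lengths and the library totals. For 701 genes present in a single library this was impossible. A count of 0 allows up to 3 fragments, 0.0727 to 0.0781 FPKM for a gene of 2 kb. Intervals and floors cover counting error only.

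The main test was limma 3.58.1 under R 4.3.3, two-sided and with a variance trend, on log2(FPKM + 1), Benjamini-Hochberg adjusted over the 11845 genes that reached 1 FPKM in 4 or more libraries. This scale understates changes of low genes. Some genes of the lists passed the filter only through the group where they were high, and the list counts include them. Alternatives changed the pseudocount, filter, scaling, trend, block and libraries, or used limma voom on fragments. The script was tested on simulated data. Chi-square per gene between replicates was 2.11 to 6.79, above the sampling noise of 1, and each library counted as 1 sample. It was 2.29 between cocktail libraries 1 and 2 and 2.55 between 3 and 4, but 4.12 to 6.79 across these pairs. Cocktail libraries thus fell into pairs, and what divides the pairs was not tested. Members and lists were chosen with earlier results of these data known. Named genes were the members, their receptors and the gene most like each member. Up to 4 called genes a list, with groups apart and at least 1 FPKM, were also named. Furin, Fgf7, Mdk, Vash1 and the hypoxia response genes given by name only were chosen after their values were seen. So were the cell type markers given singly, the overlapping genes and the within-library ratios. Some genes of the lists are not reported here.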

Additional observations from a re-analysis of the deposited data

Results flagged for a closer look

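In 134 groups of 4 libraries, from 67 named genes, 3 held a library far from the others, measured by its gap to the nearest library over the range of the group. Chance alone marks about 5% of groups. No growth factor of the 9 was among them. Clcf1 had 23.0 FPKM in cocktail library 3, against 25.2, 25.5 and 25.6 FPKM in the others. Pcsk5 had 1.24 FPKM in untreated library 2, against 1.58, 1.55 and 1.57 FPKM. Hif1a had 37.2 FPKM in untreated library 3, against 34.8, 34.9 and 34.9 FPKM.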

How the results depend on the processing

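Fgf1, Fgf2, Vegfc, Bdnf, Cntf and Ntf3 kept their direction and call in every alternative that could be fitted for them. Hgf lost its call without cocktail libraries 3 and 4 (0.20). Vegfa, with 0.11 on the log2 scale, was called with a mean of at least 5 FPKM (0.11), after median-ratio rescaling (0.18), after quantile normalization (0.15), without cocktail libraries 1 and 2 (0.17) and with voom (0.12 under both filters), and lay between 0.07 and 0.15 when 1 library was left out, called without cocktail library 2 (0.15) and without untreated library 2 (0.13). Gdnf moved from 0.14 to 0.49 with a pseudocount of 0.1 FPKM and to 0.67 with voom on genes of at least 10 fragments, a choice made after seeing the data. With a mean of at least 5 FPKM 2 members were called higher (Fgf2 and Vegfa), since Bdnf, Hgf and Vegfc were then not tested and Vegfa passed. Median-ratio rescaling raised the share of rises among all calls to 51.8%, against 39.3% as deposited. Over 53 receptor and pathway genes 978 of 988 values kept direction and call, 6 lost it, 4 gained it and none reversed. Over all tested genes, same-numbered libraries of the 2 groups did not deviate together (r between -0.04 and 0.09). This cannot exclude a pairing that touches few genes. For Ntf3 the replicate block lowered the SE from 0.14 to 0.061 at the same change of -0.87 (limma, adjusted p = 2.7e-06). With the replicate block Vegfa had 0.11 (adjusted p = 0.078), and no call of a member changed. Depth limits Gdnf and Ntf3 most, with 14 to 42 fragments in a cocktail library.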
